A study of Mus musculus with 5 samples.

Results

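Gfi1 and its corepressor Lsd1 were mapped by chromatin immunoprecipitation with sequencing (ChIP-seq) in MG tumors, and the 500 genomic sites described here were bound in all 4 libraries but ranked higher for Lsd1 than for Gfi1. Peaks of the 4 lists that shared at least 1 bp were merged into 44474 sites, of which 16709 held a peak of every list and are called shared sites. The members were chosen by the peak score itself. Within each list a peak's score was turned into its percentile, a site took the highest percentile of each list, and the 500 sites with the largest mean Lsd1 minus mean Gfi1 percentile were selected on that difference. Their percentiles are therefore a description, and position, annotated genes and DNA sequence are what the choice did not use.

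MG tumors were made from Prominin1+ lineage-negative stem cells sorted from the cerebella of 5- to 7-day-old C57BL/6 mice, which were infected with retroviruses encoding Myc T58A and Gfi1 and transplanted into immunodeficient NSG mice. Gfi1 was thus supplied by a vector, and both libraries of a factor share these transgenes. Tumors 39 and 41 each gave 1 Gfi1 library (antibody GNE-CJS-2) and 1 Lsd1 library (Abcam ab17721), so that there were 2 libraries per factor, paired by tumor. The input control is a pool of MGB tumors, made with Myc and Gfi1b, and was not analysed here. The lists held 36836 and 25078 Gfi1 peaks and 30367 and 33213 Lsd1 peaks in tumors 39 and 41. They carry no read counts, and the read totals that the study gives per library were not used here, so that no precision per peak is given. Peaks lay at a transcription start site (TSS) of 2 to 4 of 5 neural stem and progenitor markers and of 4 of 5 neuronal markers in each list, and of 0 of 4 microglial markers in every list. They also lay at 2 or 4 of 4 granule lineage markers, at 2 or 3 of 4 astrocyte markers and at 1 or 2 of 4 oligodendrocyte markers. Endothelial markers had peaks at 0 or 2 of 4 (Cldn5 and Kdr, in the Gfi1 list of tumor 39 and the Lsd1 list of tumor 41).

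Lsd1 (Kdm1a) is a histone demethylase that removes methyl groups from lysine 4 of histone H3 and is used by repressors as part of the CoREST complex, together with histone deacetylases. Gfi1 is a zinc finger repressor that binds DNA and brings in Lsd1 through its SNAG domain. Rest is another zinc finger repressor that works with CoREST and Lsd1. It binds the RE1 element and is known for holding neuronal genes silent outside mature neurons.

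The letters of RE1 were found more often in members than in all shared sites, and the sequences below are shown because they carry that observation. RE1 was searched on both strands as AGCACC and GGACAG, 2 bases apart. Of the 500 members, 19 held these letters (3.80%, exact 95% interval 2.30 to 5.87%), whereas 69 of all 16709 shared sites did (0.413%). Of the 500 shared sites with the largest difference in the opposite direction, called sites ranked higher for Gfi1, 0 did (exact 95% interval up to 0.735%). That 0 holds for these exact letters only. With the ambiguity letters of the usual RE1 consensus, 4 of the 500 sites ranked higher for Gfi1 had a match (0.80%). So did 22 of 500 members (4.40%) and 117 of all 16709 shared sites (0.700%). That pattern also asks for T and then C or T in front of the searched letters, so that it misses some exact matches. These intervals and limits cover counting error only. The windows are written 5′ to 3′ on the strand of the match, from RefSeq sequence of GRCm38.p6, with the match in capitals, for the first 8 members by rank whose window touched no annotated exon.
Phf21b: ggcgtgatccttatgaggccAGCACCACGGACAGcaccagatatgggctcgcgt
Syt7: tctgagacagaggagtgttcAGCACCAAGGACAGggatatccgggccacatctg
Vstm2l: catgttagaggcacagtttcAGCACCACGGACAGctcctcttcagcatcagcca
Swsap1: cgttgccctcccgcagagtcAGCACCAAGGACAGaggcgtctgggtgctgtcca
Nefh: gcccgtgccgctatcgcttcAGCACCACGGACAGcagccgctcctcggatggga
Cacna1h: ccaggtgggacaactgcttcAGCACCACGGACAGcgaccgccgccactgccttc
Npas4: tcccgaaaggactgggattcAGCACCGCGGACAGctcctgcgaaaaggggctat
Scamp5: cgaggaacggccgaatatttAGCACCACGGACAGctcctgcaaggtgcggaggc
The Phf21b window (chr15:84829579-84829632, minus strand) lies inside the gene, 25498 bp from a TSS of Phf21b, which encodes a PHD finger protein. The Syt7 window (chr19:10403264-10403317, plus strand) lies inside that gene, 721 bp from the TSS of this calcium sensor of vesicle fusion. The windows named for Vstm2l (chr2:157913257-157913310, minus strand) and Swsap1 (chr9:21950510-21950563, minus strand) lie in no protein-coding gene, and their matches are 1363 and 5212 bp from the closest TSS. The Nefh match (chr11:4949381-4949434, plus strand) is 1337 bp from the TSS of the neurofilament heavy chain gene, outside it. The Cacna1h window (chr17:25400618-25400671, minus strand) is in an intron of this T-type calcium channel gene. The Npas4 match (chr19:4989143-4989196, plus strand) is inside that activity-regulated transcription factor gene, 728 bp from its TSS, and the Scamp5 match (chr9:57468178-57468231, minus strand) is 138 bp from the TSS of that synaptic vesicle membrane protein gene. The 19 members held 24 matches, since 5 of them held a pair. The searched letters were preceded by TTC, which the search did not ask for, in 13 of the 24 matches, and the 2 unspecified bases were AC in 9. An Lsd1 peak covered all 24 matches in either tumor, and a Gfi1 peak covered 22 in tumor 39 and 21 in tumor 41.

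Every one of the 19 RE1 members ranked higher for Lsd1 than for Gfi1 in tumor 41 and 18 did in tumor 39, which the choice largely fixes. At Xkr7 the Gfi1 percentiles were 66.1 and 17.3 and the Lsd1 percentiles 89.5 and 93.8, in tumors 39 and 41. At Phf21b the Gfi1 percentiles were 29.4 and 52.4, and those of Lsd1 93.9 and 84.2. Both Lsd1 values exceeded both Gfi1 values at these sites, but the lower Gfi1 value came from a different tumor in each. At Chrnb2, which encodes the beta 2 subunit of the nicotinic acetylcholine receptor, Gfi1 was at 57.5 and 7.56 and Lsd1 at 70.1 and 74.7. At Syt7 Gfi1 was at 28.8 and 22.6 and Lsd1 at 63.8 and 66.3. The Nefh site had Gfi1 percentiles of 78.6 and 32.5 and Lsd1 percentiles of 92.4 and 92.7. Npas4 had the highest Lsd1 values of the 19, at 99.2 and 97.4, beside Gfi1 values of 70.7 and 58.8. The remaining RE1 members carried the match closest to Vstm2l, Swsap1, Cacna1h, Scamp5, Carmil2, Akain1, Prdm11, Gm20715, Jph3, Rpl29-ps1, Ogdhl, Mmp24 and Barhl1, and their Lsd1 percentiles spanned 43.7 to 98.5 (tumor 39) and 54.8 to 97.3 (tumor 41).

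**Figure D1:**
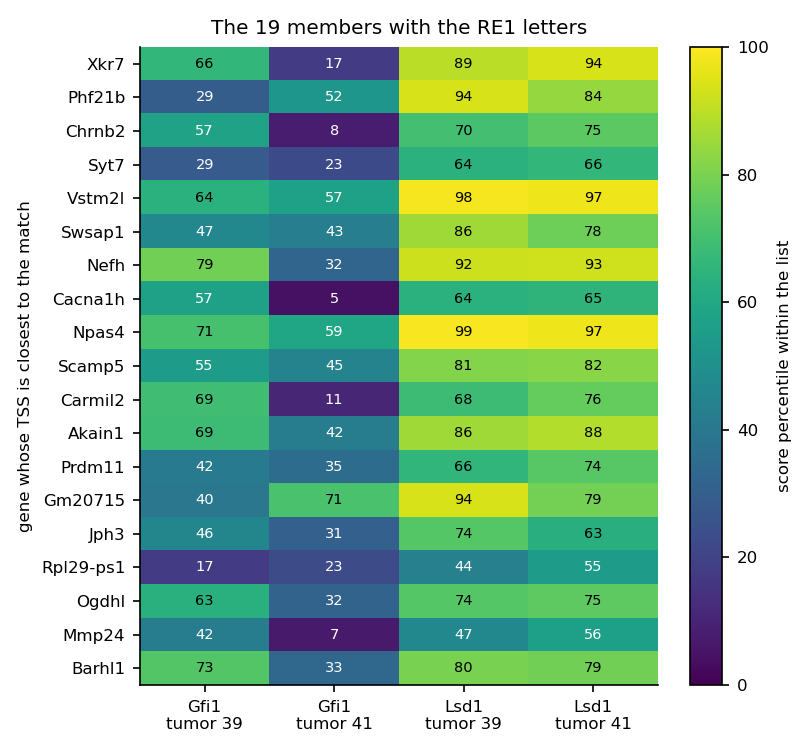
Score percentile within its list (color and printed number) of the 19 members holding the RE1 letters, one row per site in order of rank and one column per library. The lowest Lsd1 value is 43.7 in tumor 39 and 54.8 in tumor 41, and the Gfi1 tumor 41 column holds the lowest value of all, 4.56.

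All 69 shared sites with the RE1 letters include the 19 members, which were selected on this same difference, and RE1 was singled out because members held it, so that the values over the 69 are a description that the choice partly fixes. The median Lsd1 minus Gfi1 percentile at these sites was 3.19 in tumor 39 and 32.1 in tumor 41, beside -3.32 and 6.88 over all shared sites. Lsd1 ranked higher at 42 of 69 in tumor 39 (60.9%, exact 95% interval 48.4 to 72.4%), where it did at 38.3% of all shared sites. In tumor 41 it ranked higher at 64 of 69 (92.8%, 83.9 to 97.6%), where it did at 72.6% of all. Among the 50 that are not members, which lack the largest differences by construction, Lsd1 ranked higher at 24 in tumor 39 (48.0%, 33.7 to 62.6%) and at 45 in tumor 41 (90.0%, 78.2 to 96.7%). Their median difference was -0.15 in tumor 39 and 23.5 in tumor 41. The share in tumor 39 thus leaned on the members, 18 of 19 of which were positive there, and without them its interval includes the share of all shared sites.

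Members held RE1 more often than the rest at like strength, too. In the lowest quintile of the mean percentile 4 of 291 members (1.37%) and 10 of 3050 other shared sites (0.328%) held it. In the middle quintile 7 of 53 members (13.2%) and 9 of 3289 others (0.274%) did. The share was 7.39% in members at a TSS and 1.85% in those away from one, against 0.423% and 0.388% of all shared sites. In the central 400 bp of the core, which is the stretch covered by peaks of all 4 lists, 14 of 469 members (2.99%) and 27 of 16548 shared sites (0.163%) had a match. When the 500 sites were chosen from tumor 41 alone, 14 held RE1 (2.80%). When they were chosen from tumor 39 alone, 5 did (1.00%, exact 95% interval 0.325 to 2.32%), an interval that includes the share of all shared sites. Without the tumor 39 or the tumor 41 Gfi1 library the share was 2.40% or 2.00%.

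**Figure D2:**
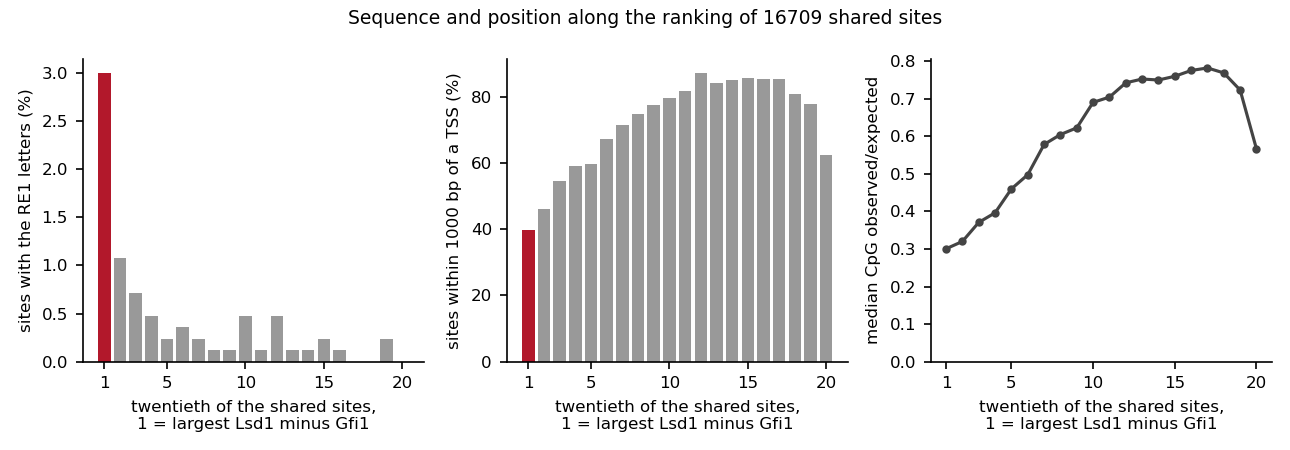
Share of sites with the RE1 letters, share within 1000 bp of a TSS, and median CpG observed to expected ratio, for the 16709 shared sites cut into 20 bins by their Lsd1 minus Gfi1 difference, with bin 1 (835 or 836 sites per bin, red where bars are used) holding all 500 members. RE1 was present in 2.99% of bin 1 and at most 1.08% of any other bin, and the TSS share rose from 39.6% in bin 1 to 87.1% in bin 12 before falling to 62.3% in bin 20.

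The members spanned much of the ranked lists. In tumor 39 the lowest, median and highest Gfi1 percentiles were 0.246, 35.6 and 93.0, with Lsd1 percentiles of 21.1, 65.1 and 99.2. In tumor 41 the Gfi1 values were 0.114, 20.4 and 71.5 and the Lsd1 values 18.6, 61.0 and 98.3. Over all shared sites Gfi1 had medians of 76.3 and 64.7, and Lsd1 medians of 71.5 and 74.0. By these medians members stood low for Gfi1 rather than high for Lsd1. The choice partly fixes this, since a large difference leaves little room for a high Gfi1 percentile. Of the 500 members 47 exceeded the 80th percentile of Lsd1 in both tumors, beside 5158 of all 16709 shared sites. The choice limits that count too, and nothing is read from it. The difference of the members had a median of 30.9 and ran from 26.1 to 79.3. The last sites inside the limit, near Gm44148, Pkdcc and Tead1, and the first outside it, near Gm11728, P2rx7 and Gm28723, all had differences that round to 26.1, so that the limit marks no gap.

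**Figure D3:**
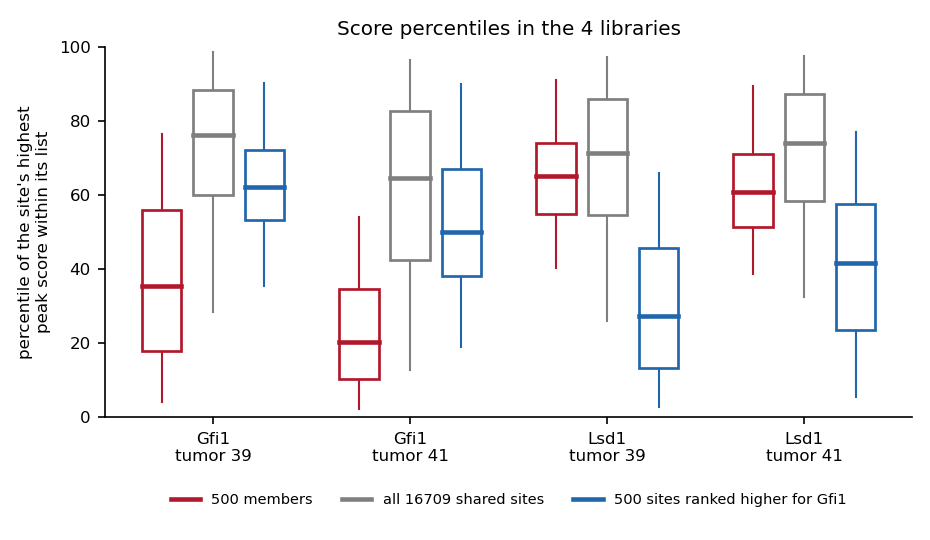
Percentile of the highest peak score at a site within its list, for the 500 members, all 16709 shared sites and the 500 sites ranked higher for Gfi1, in each library (box, middle 50% of sites; thick line, median; thin line, 5th to 95th percentile of sites). Member medians of 35.6 and 20.4 for Gfi1 lie below those of all shared sites, and Lsd1 medians of 65.1 and 61.0 lie closer to them.

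Both tumors did not contribute alike. The median Lsd1 minus Gfi1 difference of the members was 27.0 in tumor 39 and 38.5 in tumor 41. Lsd1 ranked higher in both tumors at 461 members (92.2%), where it did at 27.1% of all shared sites, and both Lsd1 percentiles exceeded both Gfi1 percentiles at 442 members (88.4%), where they did at 20.3% of all. These counts follow from the choice and nothing is read from them. A reading that the choice did not use was had by selecting 500 sites on one tumor and reading them in the other. Sites selected on tumor 39 had a median difference of 10.7 in tumor 41, and Lsd1 ranked higher at 360 of them (72.0%), where 72.6% of all shared sites did so. Sites selected on tumor 41 had a median difference of -10.4 in tumor 39, with Lsd1 higher at 135 (27.0%), where 38.3% of all did so. A higher Lsd1 rank was thus not more frequent in the tumor left out of the choice than over all shared sites. Across the 16709 shared sites, which share libraries and positions, the differences of both tumors had a Spearman correlation of -0.11, and 24 sites were in both selections of 500. The Gfi1 list of tumor 41 was the shortest of the 4, and its part in the tumor 41 differences was not tested.

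**Figure D4:**
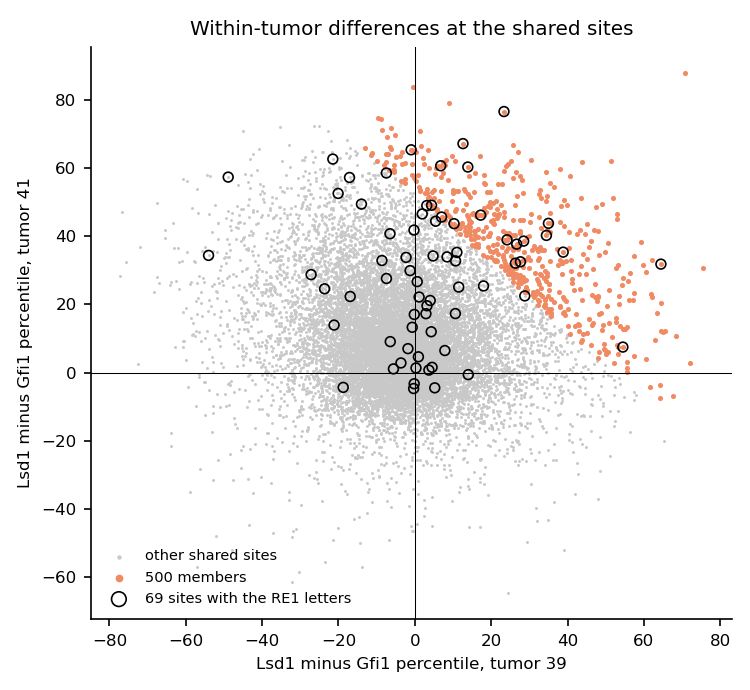
Lsd1 minus Gfi1 percentile in tumor 39 (horizontal) and tumor 41 (vertical) for every shared site, with the 500 members in orange and the 69 sites holding the RE1 letters circled. Members fill the upper right edge by construction, with medians of 27.0 and 38.5, while the cloud of all sites shows no rising trend and 64 of 69 circles lie above the horizontal zero line.

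The members lay away from promoters more often than other shared sites. Of the 500, 176 (35.2%) came within 1000 bp of a TSS, 188 (37.6%) had their midpoint in an intron, 120 (24.0%) were intergenic and 16 (3.20%) were in an exon. Of all shared sites 72.2% were at a TSS, 14.1% in an intron and 11.6% intergenic, and of the 500 sites ranked higher for Gfi1 54.4% were at a TSS. Weak shared sites lay away from a TSS more often in general, yet the TSS share of members was below that of other shared sites in each of the lowest 3 quintiles of the mean percentile. It was 22.7% against 36.8% in the lowest quintile, 44.9% against 57.2% in the next and 66% against 81.1% in the middle one. All 9 members of the fourth quintile were at a TSS. The highest quintile held 0 members, which the choice fixes. Its mean percentiles began at 87.8, where a difference of 26.1, the smallest among members, cannot be reached. These sites, 96.7% of them at a TSS, remain in the shares given for all shared sites. The TSS share depended on the tumor. It was 20.6% for sites selected on tumor 39 and 67.6% for those selected on tumor 41, so that the share of the members lay between them. Without the Gfi1 library of tumor 39 it was 60.6%, and without that of tumor 41 it was 22.8%. With peaks of a score of at least 100 only, it was 53.0%, beside 80.6% of all sites shared at that score.

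Sequence composition followed the same pattern. The median CpG observed to expected ratio in the central 400 bp of the core was 0.292 in 469 members and 0.625 in all shared sites with a core. At a TSS it was 0.408 in members and 0.740 in all, and away from a TSS 0.243 and 0.306. CpG islands are commonly taken to have a ratio above 0.6, and 13.0% of members and 52.1% of all shared sites passed this level. Median GC content was 53.8% in members and 59.0% in all. In the sites ranked higher for Gfi1 the median ratio was 0.472, 37.6% passed that level and median GC was 56.5%. By strength, the median ratio was 0.259 in members and 0.344 in other shared sites of the lowest quintile of the mean percentile. In the middle quintile it was 0.408 and 0.687. Sites selected on tumor 39 had a median ratio of 0.246 and those selected on tumor 41 one of 0.593. The median share of bases masked as repeats in the reference was 6.00% in members and 5.50% in all shared sites.

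The sites of largest difference were mostly away from a TSS. First was an intronic site of Npas1, a bHLH-PAS transcription factor gene (chr7:16459989-16465881), with Gfi1 at 23.2 and 4.90 and Lsd1 at 93.9 and 92.7 in tumors 39 and 41. Its Lsd1 peaks covered 5827 and 5542 bp, its Gfi1 peaks 1108 and 837 bp, and no base of it was covered by all 4 lists. This site was far ahead of the rest, with a difference of 79.3 before 56.7 at the second, an intergenic site 7995 bp from Rdm1 (chr11:101616104-101619200). There Gfi1 was at 31.7 and 3.62 and Lsd1 at 83.0 and 65.7. The third, 914 bp from a TSS of Eepd1, had Gfi1 at 5.12 and 35.9 and Lsd1 at 80.6 and 66.4. The others of the first 12 by difference lay at the TSS of Gatd1, Xkr7 and Sdc3, 1352 bp from Prss22, in introns of Wwox and Tspo, in Gpx7 and in intergenic sequence closest to Map3k7cl and to another protein-coding gene. Sdc3 encodes a syndecan of neural cells, Gpx7 a glutathione peroxidase and Tspo a protein of the outer mitochondrial membrane. Their differences ran from 48.8 to 52.8. At Gatd1 Gfi1 was at 18.2 and 13.6 and Lsd1 at 70.2 and 64.9, so that the differences of 52.0 and 51.3 were nearly alike in both tumors. The next sites away from a TSS were the RE1 site of Phf21b, introns of Tead1 and Slc2a10, and an intergenic site closest to the protein-coding gene Irf2bpl. Tead1 is a transcription factor of the Hippo pathway, and its intronic site had Gfi1 at 17.7 and 5.80 and Lsd1 at 65.3 and 54.3. The 5 members with the largest smaller difference of both tumors were those in Npas1, near Rdm1, at Gatd1, in Wwox and in Tead1.

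The sequence at the sites far from a TSS is shown for the 6 members that a fixed rule took, in order of difference, among those away from a TSS whose central 200 bp of the core overlapped no annotated exon. The names are those of the closest protein-coding gene. They are given on the plus strand from RefSeq GRCm38.p6, with matches to any of the 26 motifs searched in capitals.
Rdm1 region: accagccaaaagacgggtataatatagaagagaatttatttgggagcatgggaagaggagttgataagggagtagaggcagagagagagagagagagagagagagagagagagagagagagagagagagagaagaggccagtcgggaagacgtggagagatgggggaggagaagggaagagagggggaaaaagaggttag
Prss22 region: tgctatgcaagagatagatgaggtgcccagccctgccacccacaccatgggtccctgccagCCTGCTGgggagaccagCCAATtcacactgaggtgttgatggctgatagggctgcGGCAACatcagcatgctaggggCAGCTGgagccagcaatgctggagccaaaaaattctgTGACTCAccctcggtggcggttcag
Wwox intron: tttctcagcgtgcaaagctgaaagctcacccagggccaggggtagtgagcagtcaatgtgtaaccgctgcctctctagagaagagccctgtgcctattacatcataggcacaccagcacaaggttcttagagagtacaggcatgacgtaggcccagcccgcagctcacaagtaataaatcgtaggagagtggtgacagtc
Gpx7 intron: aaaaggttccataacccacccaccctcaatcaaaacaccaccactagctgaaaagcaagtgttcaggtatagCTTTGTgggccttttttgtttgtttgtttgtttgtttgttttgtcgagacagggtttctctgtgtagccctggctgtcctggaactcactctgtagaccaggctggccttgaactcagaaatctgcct
Tspo intron: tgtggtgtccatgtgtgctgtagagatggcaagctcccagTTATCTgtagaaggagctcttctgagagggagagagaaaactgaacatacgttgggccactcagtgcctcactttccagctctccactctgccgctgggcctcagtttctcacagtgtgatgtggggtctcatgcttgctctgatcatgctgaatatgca
Map3k7cl region: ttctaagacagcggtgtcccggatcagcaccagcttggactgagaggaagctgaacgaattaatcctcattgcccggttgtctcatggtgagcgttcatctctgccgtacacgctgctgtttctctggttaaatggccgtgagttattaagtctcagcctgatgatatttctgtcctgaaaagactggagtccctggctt
The Rdm1 region window is chr11:101617783-101617982, that of Prss22 chr17:24000489-24000688, that of Wwox chr8:114984636-114984835, that of Gpx7 chr4:108399966-108400165, that of Tspo chr15:83567932-83568131 and that of Map3k7cl chr16:87611227-87611426. They held 1 to 8 CG dinucleotides, and 3 of the 6 held no searched motif. The Prss22 window held 5 different motifs, among them the AP-1 letters TGANTCA. In the Rdm1 and Gpx7 windows 64.0% and 63.5% of the bases were masked as repeats in the reference, in the first a long run of GA.

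Motif shares were compared separately at and away from a TSS, since position differed so much. A match is a string of letters on either strand and not a bound site. The Gfi1 core AAATCAC was found in 20 of 469 members (4.26%) and in 2.84% of all shared sites in the central 400 bp, but in 8.53% and 8.51% in the central 1000 bp. Over the whole core it was in 8.53% of members and 16.6% of all shared sites, so that the order depended on the window. The median core was shorter in members than in all shared sites. It was 945.5 bp in members and 997 bp in the sites ranked higher for Gfi1. Of those sites, 4.57% held AAATCAC in the central 400 bp, 12.68% in the central 1000 bp and 14.97% in the whole core. Each share was above that of members. Over the whole site 27.8% of members and 27.6% of those sites held it. In the central 400 bp at a TSS, AAATCAC stood at 5.33% in members, 2.28% in all and 2.26% in sites ranked higher for Gfi1. Away from one it stood at 3.67%, 4.33% and 7.41%. The longer Gfi1 strings AATCACTGC and AATCACAGC, which overlap the core, were found in the central 400 bp of 0 of 469 members. The exact interval for that 0, at the level used for RE1, reached 0.783%. It includes the share of all shared sites, 0.707%. In the same window these strings were found in 11 of 481 sites ranked higher for Gfi1 (2.29%). Over the whole site, the window used for RE1, they were present in 9 and 12 of 500 members (1.80% and 2.40%), and in 2.46% and 4.43% of all shared sites. Away from a TSS the NFI half-site TTGGCA was held by 39% of members and 31.8% of all shared sites, and the AP-1 string by 16.0% and 12.6%. At a TSS they stood at 24.3% against 15% and at 8.88% against 5.69%. The E-box CAGATG was held by 30.8% of members and 17.1% of all shared sites at a TSS, and by 31.0% and 30.2% away from one. The GC box GGGCGG, found in CpG-rich promoters, was held by 36.7% of members at a TSS against 59.6% of all, and by 11.7% away from one against 21.7%. The Ets string CCGGAAG stood at 8.88% against 14.7% at a TSS and at 9 of 300 against 5.24% away from one. The YY1 string AAGATGGC stood at 1.18% against 4.36% at a TSS. Several of these shares also differed with the tumor used for the choice. These values are over sites at and away from a TSS together. Of the sites selected on tumor 39 and on tumor 41, 20.6% and 67.6% were at a TSS, so that tumor and position are not separated. Sites selected on tumor 39 or on tumor 41 held the NFI half-site in 37.7% or 18.3%, where 19.6% of all shared sites did, the AP-1 string in 14.7% or 7.28%, where 7.58% did, and the GC box in 9.70% or 46.2%, where 49.3% did. The E-box stood at 36.0% or 21.6%, where 20.7% of all shared sites held it, and the Ets string at 2.59% or 7.07%, where 12.1% did.

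**Figure D5:**
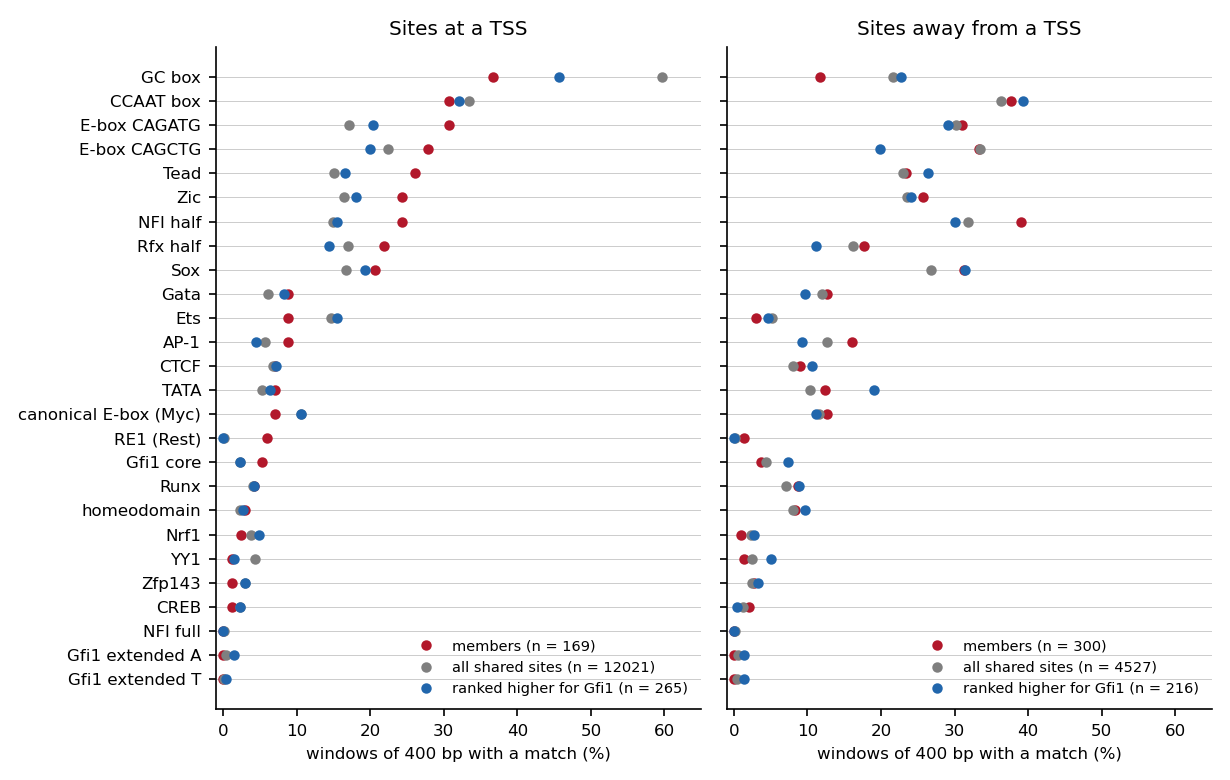
Share of windows of 400 bp at the centre of the core that hold each searched motif, at a TSS (left) and away from one (right), for members (red), all shared sites (grey) and the sites ranked higher for Gfi1 (blue). Members at a TSS stood at 5.92% for RE1 against 0.158% of all shared sites, and at 36.7% against 59.6% for the GC box.

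Some of the genes whose TSS lay at a member encode proteins of the synapse and ion channels. Of 15212 genes with a shared site at a TSS, 212 (1.39%) had a member there, and this share serves as the background of the gene lists. Of 55 synapse and vesicle genes with a shared site, 7 had a member (12.7%), namely Syt13, Syt7, Nrxn2, Dlgap4, Dlg4, Rims1 and Cplx2. Of 63 ion channel genes 5 did (7.94%), Cacng2 and Kcnab2 among them. Chrnb2 was 1 of 19 neurotransmitter receptor genes and Nefh 1 of 19 genes of the neuronal cytoskeleton. Together these were 14 of 156 genes (8.97%), beside 5 of 156 (3.21%) with a site among the 500 ranked higher for Gfi1, where the background was 2.19%. Of the axon guidance and adhesion genes, which hold further surface proteins of neurons and are not in this sum, 1 of 109 had a member (0.917%). The RE1 letters were present at 3 of the 14, Chrnb2, Nefh and Syt7, and at 8 of all 156 genes of these lists with a shared site. Of 445 genes of the 6 housekeeping lists 2 (0.449%) had a member, Psmd9 of the proteasome and Prpf40b of splicing. Members lay at 0 of 80 cytosolic ribosomal protein, 0 of 75 mitochondrial ribosomal protein and 0 of 104 oxidative phosphorylation genes. With a background of 1.39%, a count of 0 in lists of this size is not read as a lower share. Site strength was not matched between the lists. The highest quintile of the mean percentile held 0 members, which the choice fixes, and the fourth held 9. Shared sites at a TSS of the neuronal lists had a median mean percentile of 69.6, beside 78.0 at all shared TSS sites. The part of strength in these shares was not tested.

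The neuronal promoters were members mainly through tumor 41. At the TSS of Syt13, a synaptotagmin gene, Gfi1 was at 66.6 and 18.7 and Lsd1 at 94.8 and 75.3 in tumors 39 and 41. At Nrxn2, which encodes a presynaptic neurexin, Gfi1 was at 74.6 and 44.6 and Lsd1 at 96.1 and 92.7. At Cacng2, the gene of the AMPA receptor partner stargazin, Gfi1 was at 71.6 and 59.0 and Lsd1 at 97.3 and 95.9. Both Lsd1 values exceeded both Gfi1 values at these 3 promoters. At Rims1 and Cplx2 the difference was -5.37 and -2.60 in tumor 39 and 59.3 and 55.6 in tumor 41. Over the 14 members the lowest and highest differences were -5.37 and 35.0 in tumor 39, and 32.4 and 67.1 in tumor 41. Of the 182 shared sites at a TSS of the 4 neuronal lists, Lsd1 ranked higher at 65 (35.7%) in tumor 39 and 151 (83.0%) in tumor 41, where it did at 30.4% and 72.7% of all shared sites at a TSS. Selected on tumor 39 alone, 3 of these 182 sites (1.65%) were among the 500, where 0.853% of all shared TSS sites were. Selected on tumor 41 alone, 20 (11%) were, where 2.80% of all were.

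Members in the other gene lists were few. The homeodomain genes Cux2 and Barhl1, the latter of the granule cell lineage, had members among 37 genes with a shared site. The Lsd1-CoREST list had 1 of 18, Phf21a, a subunit of that complex, where Gfi1 was at 70.4 and 11.2 and Lsd1 at 57.5 and 77.1, so that the factors were in opposite order in the tumors. Prdm11 and Hdac4 were 2 of 71 histone methylation and deacetylation genes. Smad3 and Ctnnb1 were 2 of 53 genes of BMP, TGF-beta and Wnt signalling, and Nr4a1 was 1 of 49 immediate early genes. Arhgef2, Arhgap39 and Dock10 were 3 of 121 GTPase regulators, Zfp950 and Zfp365 2 of 333 Zfp genes, Slc11a1 and Slc13a3 2 of 179 solute carriers, Sema4d was the axon guidance gene, and Anapc16 was the only one of the cell cycle genes. The lists of bHLH factors, of Sox, Zic, NFI and Fox factors, of Notch and hedgehog signalling, of translation factors and of replication-dependent histones had 0 members among 29, 35, 17, 63 and 65 genes.

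The members that ranked highest for Lsd1 itself were mostly promoters, but less often so than all shared sites strong for Lsd1. Above the 80th percentile of Lsd1 in both tumors, 4859 of 5158 shared sites and 35 of 47 members were at a TSS. The other 12 of these members were not. The 5 members with the highest mean Lsd1 percentile were at Rin1, Npas4, Nap1l1, Vstm2l and Cacng2. Rin1, a Ras effector expressed in neurons, had Lsd1 at 98.5 and 98.3 and Gfi1 at 78.8 and 62.5. Nap1l1, a nucleosome assembly factor, had Lsd1 at 98.2 and 97.9 and Gfi1 at 81.7 and 58.1. At these sites Gfi1 was thus above the median of its own list in both tumors.

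Peaks of Lsd1 were wider than those of Gfi1 at the members. The median length covered was 2792 and 2415 bp for Lsd1 and 1534.5 and 1242 bp for Gfi1, in tumors 39 and 41, against 2473 and 2386 bp and 2129 and 2035 bp over all shared sites. The median ratio of Lsd1 to Gfi1 length was 1.68 in members, 1.13 in all and 0.860 in the sites ranked higher for Gfi1. Width was taken to go with the score, so that these lengths count as used by the choice and are a description. The relation of width to score was not tested. The stretch covered by all 4 lists had a median of 945.5 bp in members, 997 bp in the sites ranked higher for Gfi1 and 1678 bp in all, and 31 members had no such stretch. Of the members 36 lay within 20000 bp of another member.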

How the data were processed

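Gfi1 and Lsd1 ChIP-seq libraries of MG tumors 39 and 41 were compared, 2 per factor. The submitters' processing notes name FastQC, BWA 0.6.2, Picard and the mm10 build. Per the study's methods, the authors called peaks with MACS at default settings against input chromatin. The lists the authors deposited hold a position and a peak score. The definition of the score is not given in the sources used here, it starts at 50.0, and many peaks share the value 3100, so that it was used only as a rank, with mean ranks for ties. No member's highest peak had that value.

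Overlapping peaks were merged, and 161 shared sites, 31 of them members, had no base covered by all 4 lists and gave no core sequence. TSSs were from GENCODE release M21 and sequence from RefSeq GRCm38.p6, the build of mm10. No test between groups was run, since 2 libraries against 2 cannot give an exact two-sided p-value below 0.333, and sites are not replicates. Same-numbered libraries come from 1 tumor and were paired in every within-tumor difference. The members, motifs and gene lists were chosen with earlier results of these data known. The genes named were the 12 members of largest difference, the 12 of largest difference away from a TSS, 3 sites on either side of the limit, up to 3 TSS members per list, the 5 of highest mean Lsd1 percentile and the 5 of largest smaller difference. RE1 sites, and list members beyond 3, were picked with their values known, and some list members are not reported here. The steps were tested on simulated data. Python 3.11.15, numpy 2.4.6, scipy 1.17.1, pandas 2.3.3, pysam 0.24.0, samtools 1.23.1 and matplotlib 3.10.9 were used.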

Additional observations from a re-analysis of the deposited data

Results flagged for a closer look

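The median Lsd1 minus Gfi1 percentile had opposite signs in the tumors. Over all 16709 shared sites it was -3.32 in tumor 39 and 6.88 in tumor 41. A percentile is a rank divided by the length of its list. The Gfi1 list was longer than the Lsd1 list in tumor 39 (36836 and 30367 peaks). It was shorter in tumor 41 (25078 and 33213 peaks). The part of list length in these signs was not tested. Sites selected on tumor 39 had a median of 10.7 in tumor 41, whereas those selected on tumor 41 had a median of -10.4 in tumor 39. With 1 pair of libraries per tumor, these differences between the tumors were not tested.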

How the results depend on the processing

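No paired analysis was possible because the results come from no test, so that no fit could take a block, and the within-tumor differences carry the pairing. Alternatives were set against the SD between the values of both tumors. That SD is wide (33.2 percentage points for the TSS share, which ran from 20.6 to 67.6%), so that moving by less, as 116 of 140 values did, does not show stability. Chosen by tumor 41 and read in tumor 39, the median difference turned from 10.7 to -10.4. With 250 members RE1 was held by 5.60%, the Gfi1 core by 3.03%, and the Lsd1 to Gfi1 length ratio was 1.86. With mean percentiles the core stood at 3.12% and the ratio at 1.43. The core was at 3.34% with 1000 members, 2.87% with scores of at least 100, 3.11% with exactly 1 peak per list, and 8.53% in the central 1000 bp and in the whole core, where all shared sites stood at 8.51 and 16.6%. By alternatives added after seeing the data, RE1 was at 1.00% and the core at 2.80% by tumor 39 alone, and by tumor 41 alone the core was at 1.87%, the CpG ratio at 0.593 and GC at 60.5%. Without single libraries the median difference ran from 33.6 to 48.7, the share with Lsd1 higher in both tumors from 44.6 to 90.6%, RE1 from 2.00 to 4.40%, the core from 2.47 to 3.99%, the length ratio from 1.42 to 1.71 and the TSS share from 22.8 to 60.6%. The lowest share in both tumors (44.6%), RE1 at 2.40%, the TSS share of 60.6% and the ratio of 1.42 came without the Gfi1 library of tumor 39, and RE1 at 2.00% and the TSS share of 22.8% without that of tumor 41. The causes were not tested. Depth limits were not computed, since the lists hold no read counts.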
